A study of Mus musculus with 8 samples.

Results

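Marker genes of the testis's supporting and hormone-making cells were followed in preparations of round spermatids, which are haploid germ cells past meiosis. The set holds 10 genes, 6 of Sertoli cells (Clu, Cst12, Inha, Cldn11, Aard and Sox9) and 4 of Leydig cells (Insl3, Cyp17a1, Star and Hsd3b6). Every probe that the platform annotation ties to 1 of these symbols was taken, which gave 11 of the 45281 probes on the array for 9 of the 10 genes, out of 19057 named genes in all. Clu, which encodes clusterin, had no probe under that name and was not analysed here. The array is an Illumina mouse bead array, on which each probe's brightness, its intensity, reports the amount of 1 transcript.

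The mice were 8 weeks old and their round spermatids were purified by centrifugal elutriation, which separates cells by size and density. The 4 wildtype arrays carried no transgene, 2 arrays came from mice with an RNA interference construct labelled shSLX and 2 from mice with one labelled shSLY. The constructs are aimed at Slx and Slxl1, multicopy genes of the X chromosome, and at their Y-linked relative Sly, and the titles name the constructs shSLX1 and sh367. The series set each knockdown against controls of the same age and strain. The strain, the promoter of each construct and the number of founder lines are not given in the sources used here. The labels name no animal, culture or pool for any sample, and a p-value here therefore gauges the scatter among these arrays alone, part of which may be technical. By the array labels, wildtype 2 was on slide 1, wildtype 1 and both shSLY arrays were on slide 2, and wildtype 3 and 4 and both shSLX arrays were on slide 3.

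Sertoli cells are the nurse cells of the seminiferous tubule: they hold the germ cells, feed them and seal the tubule with tight junctions. Leydig cells lie outside the tubule, between the tubules, and make testosterone from cholesterol under pituitary control. Neither cell type is the target of the purification, and transcripts of these genes in the RNA can come from such cells, from their debris or from the germ cells themselves. In bulk RNA, fewer cells of a type and less RNA per cell cannot be told apart.

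Promoter sequences are shown for Cldn11, Cst12 and Insl3, the members that were detected in all 8 columns of detection p-values and have an entry in the RefSeq promoter table (GRCm38.p6). The table held 5 of the 10 members, these 3 with Hsd3b6 and Inha. Each sequence runs from 250 bases before to 50 bases after the gene's start, 5′ to 3′ on the gene's strand. Capitals mark CCAAT, the letters of the NF-Y motif, which stands on the other strand and so reads ATTGG here. The Cldn11 window is chr3:31149670-31149969 (+), the Cst12 window chr2:148789115-148789414 (+) and the Insl3 window chr8:71689002-71689301 (+).
Cldn11: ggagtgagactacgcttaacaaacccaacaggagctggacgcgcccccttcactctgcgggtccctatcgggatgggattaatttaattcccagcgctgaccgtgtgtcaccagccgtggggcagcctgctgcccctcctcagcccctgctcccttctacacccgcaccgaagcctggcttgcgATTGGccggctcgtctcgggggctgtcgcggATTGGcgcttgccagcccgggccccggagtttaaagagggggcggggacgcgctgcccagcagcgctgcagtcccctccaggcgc
Cst12: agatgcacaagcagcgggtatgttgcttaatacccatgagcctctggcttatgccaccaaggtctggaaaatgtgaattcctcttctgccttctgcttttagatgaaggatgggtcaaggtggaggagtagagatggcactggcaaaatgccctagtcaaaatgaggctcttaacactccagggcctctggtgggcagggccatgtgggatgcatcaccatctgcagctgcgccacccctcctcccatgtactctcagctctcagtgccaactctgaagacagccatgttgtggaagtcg
Insl3: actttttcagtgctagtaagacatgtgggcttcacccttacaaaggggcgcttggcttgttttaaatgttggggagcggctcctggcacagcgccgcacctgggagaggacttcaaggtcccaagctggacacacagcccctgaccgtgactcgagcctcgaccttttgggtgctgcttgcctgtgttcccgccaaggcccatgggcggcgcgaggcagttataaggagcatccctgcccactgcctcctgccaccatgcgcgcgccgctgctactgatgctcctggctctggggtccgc

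Cldn11 held CCAAT at 2 places, at bases 185 to 189 and 216 to 220 of its window, and Inha held it at 1. CCAAT, searched on both strands, occurred in 37.4% of all 32851 promoters of the table, and it was picked after the sequences had been seen. AACAAT, a core recognised by SOX factors such as SOX9, occurred in 0 of the 5 member promoters and in 10.7% of all promoters. AAGGTCA, the letters of the NR5A1 motif of steroid-making cells, occurred in 0 of 5 and in 4.72% of all. AGATAA, bound by GATA factors, occurred in 1 of 5, that of Hsd3b6, and in 11.2% of all, and TGACGTCA, the cyclic AMP response element, in 0 of 5 and in 1.79% of all. These matches describe the letters in 300 bases only.

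The arrays were alike as a whole. Log2 signals of the 16572 probes that passed a detection filter correlated at 0.973 to 0.996 between any 2 arrays. The 2 deposited tables disagree over which array is which for 6 of 8 columns: the columns headed wildtype 3 and 4 in the non-normalized table hold the ranks of shSLY 1 and 2 of the normalized table, those headed shSLY 1 and 2 hold the ranks of shSLX 1 and 2, and those headed shSLX match none. In turn, wildtype 3 and 4 of the normalized table match no non-normalized column (best Spearman rank correlation 0.909 and 0.915, against 1 for the other arrays). These 2 arrays therefore have no detection p-value of their own, and the counts of columns detected below do not cover them. Every direction below holds for the arrays as named in the normalized table, and shSLX and shSLY below are labels in that sense. The slides come from the array labels that the dispute is about: the columns headed shSLY, which hold the shSLX ranks, are on slide 2, and the columns headed wildtype 3 and 4, which hold the shSLY ranks, are on slide 3. Each value fitted with the slide, and each comparison within a slide, therefore rests on slides that are themselves in doubt for the transgenic arrays and for wildtype 3 and 4. Sly, the 1 targeted gene with a probe, fell by 0.86 ± 0.17 (SE) on the log2 scale with shSLX (limma adjusted p = 0.0377). In the arrays labelled shSLY it differed by -0.11 ± 0.21 (adjusted p = 0.959), so Sly did not bear out that label. The arrays in which Sly fell hold the ranks of the columns that the non-normalized table heads shSLY. No probe for Slx or Slxl1 was there to check the shSLX label, and which names are right was not settled. Of 15 round spermatid markers (Prm1, Tnp1, Acrv1 and others) 14 had a probe and 13 passed the detection filter. Their mean log2 signal lay between 11.92 and 12.01 on all 8 arrays.

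Of the 11 member probes, 6 passed the filter, 5 for Sertoli genes and 1 for a Leydig gene. To pass, a probe needed a detection p-value under 0.01 in 2 or more columns of the non-normalized table, whichever their names. Cst12, Cldn11, Aard and 1 Insl3 probe were detected in 8 of 8 columns, 1 Sox9 probe in 6 of 8 and Inha in 5 of 8. The 3 steroid synthesis genes, the other Sox9 probe and the other Insl3 probe did not pass. Signals below are normalized log2 signals, and each is compared only with the same probe on other arrays.

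**Figure D1:**
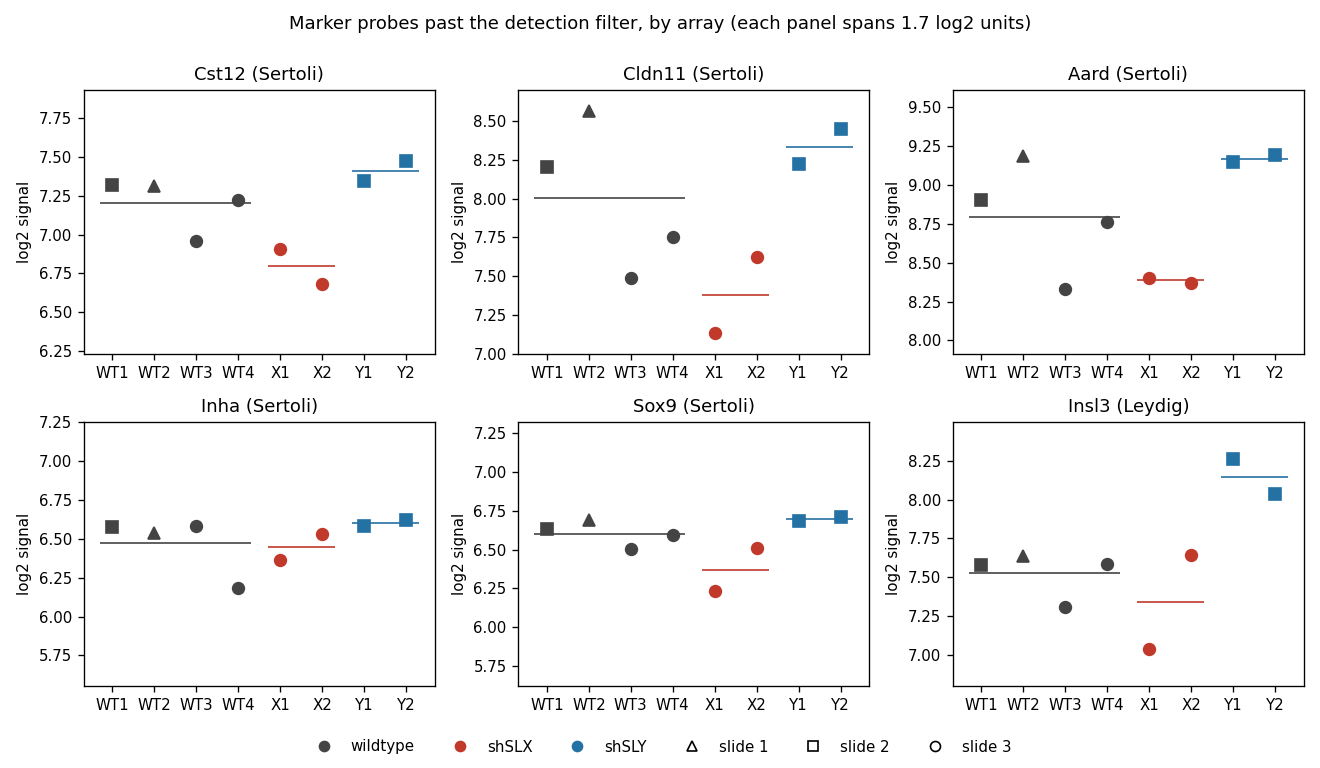
Normalized log2 signal of the 6 marker probes that passed the detection filter, 1 panel per gene, with 1 point per array (WT1 to WT4 wildtype, X1 and X2 shSLX, Y1 and Y2 shSLY), coloured by group and marked by slide. For Cst12, Cldn11, Aard and Sox9, wildtype 3 and 4 and both shSLX arrays lie below wildtype 1 and 2 and both shSLY arrays.

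Cldn11, on chromosome 3, encodes claudin 11, a protein of the tight junctions between Sertoli cells. Its log2 signal was 8.20, 8.56, 7.49 and 7.75 in wildtype 1 to 4, 7.13 and 7.62 in the shSLX arrays, and 8.22 and 8.45 in the shSLY arrays. The arrays fell on 2 levels, with wildtype 1, wildtype 2 and shSLY high and wildtype 3, wildtype 4 and shSLX low, and with no overlap. Its SD over the 8 arrays was 0.50, larger than that of 97.4% of the probes that passed the filter, whose median was 0.165. Among the 4 wildtype arrays alone its SD was 0.47, larger than that of 98.6% of the probes.

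Aard, on chromosome 15, is an alanine- and arginine-rich gene known from Sertoli cells of the developing testis. Its log2 signal was 8.90, 9.19, 8.33 and 8.77 in wildtype 1 to 4, 8.40 and 8.37 in the shSLX arrays, and 9.15 and 9.19 in the shSLY arrays. The same 4 arrays were high and the same 4 low. The SD was 0.38 over the 8 arrays and 0.36 among the wildtype arrays, larger than that of 93.9% and 96.4% of the probes.

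Cst12, on chromosome 2, encodes a cystatin, a relative of cysteine protease inhibitors, expressed in the male reproductive tract. Its log2 signal was 7.32, 7.31, 6.96 and 7.22 in wildtype 1 to 4, 6.91 and 6.68 in the shSLX arrays, and 7.35 and 7.48 in the shSLY arrays. Both shSLX arrays lay below all 4 wildtype arrays, as 13.4% of all probes did, and both shSLY arrays above them, as 16.6% did. Of the 5 Sertoli probes, Cst12 was the 1 that did either. The SD was 0.27 over the 8 arrays, larger than that of 83.2% of the probes.

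Sox9, on chromosome 11, encodes the transcription factor that sets the Sertoli fate. By the probe detected in 6 of 8 columns (ILMN_2778151), its log2 signal was 6.63, 6.69, 6.50 and 6.59 in wildtype 1 to 4, 6.23 and 6.51 in the shSLX arrays, and 6.68 and 6.71 in the shSLY arrays. The order of the arrays was again high for wildtype 1, wildtype 2 and shSLY and low for the others, but wildtype 4 lay just under wildtype 1. The SD of 0.156 over the 8 arrays was near the median of all probes.

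Inha, on chromosome 1, encodes the alpha subunit of inhibin, the hormone by which Sertoli cells restrain the pituitary. Its log2 signal was 6.58, 6.54, 6.59 and 6.18 in wildtype 1 to 4, 6.37 and 6.53 in the shSLX arrays, and 6.58 and 6.62 in the shSLY arrays. Unlike the others it did not separate wildtype 3 from wildtype 1 and 2. Wildtype 4 was the lowest of the 8 arrays, and wildtype 3 lay between the shSLY arrays. The SD was 0.149 over the 8 arrays.

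Insl3, on chromosome 8, encodes a peptide hormone that Leydig cells secrete and that guides descent of the testis. By the probe that passed the filter (ILMN_1249776), its log2 signal was 7.58, 7.64, 7.31 and 7.58 in wildtype 1 to 4, 7.04 and 7.64 in the shSLX arrays, and 8.26 and 8.04 in the shSLY arrays. Both shSLY arrays were above every other array, while shSLX 1 was the lowest array and shSLX 2 was level with wildtype 2. Its wildtype SD was 0.149 against 0.38 over all 8 arrays.

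The Leydig steroid pathway was not well above background. Star carries cholesterol into the mitochondrion, Hsd3b6 is the 3-beta-hydroxysteroid dehydrogenase of mature Leydig cells, and Cyp17a1 turns progestins into androgen precursors. Star and Hsd3b6 were detected in 0 of 8 columns, as were the other Sox9 probe (ILMN_3007428) and the other Insl3 probe (ILMN_2654385). The Cyp17a1 probe was detected in 1 of 8 columns.

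**Figure D2:**
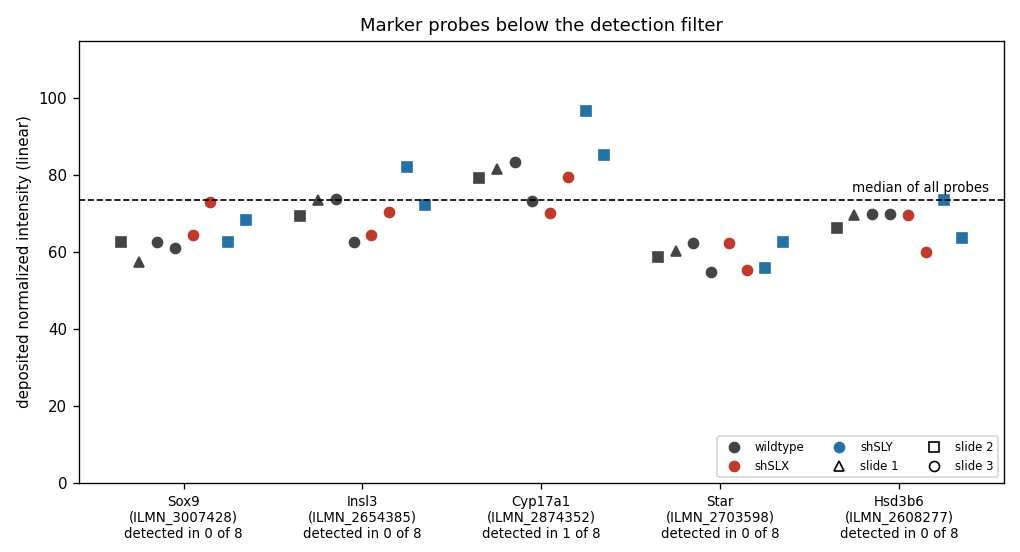
Deposited normalized intensity, on a linear axis from 0, of the 5 marker probes that did not pass the detection filter, with 1 point per array coloured by group. All points lie between 55.0 and 96.6, around the array medians of 73.6 to 73.7.

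The 5 dim probes had normalized intensities from 55.0 to 96.6, while the median probe of each array stood at 73.6 to 73.7. The highest of these values was Cyp17a1 in shSLY 1. The Cyp17a1 intensities were 96.6 and 85.4 in the shSLY arrays and 70.3 and 79.6 in the shSLX arrays, and the probe gave log2 signals of 6.28, 6.32, 6.35 and 6.16 in wildtype 1 to 4. Star intensities stayed between 55.0 and 62.7 and those of Hsd3b6 between 60.0 and 73.5. A fit without the detection filter gave 25 tests of these probes over 5 comparisons, with a lowest limma adjusted p of 0.595, a lowest unadjusted p of 0.14 and a largest log2 difference of 0.26. For 2 genes the 2 probes thus disagreed: 1 Sox9 and 1 Insl3 probe gave a signal above background and the other gave none.

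The wildtype arrays were then set against each other, to see how far the markers vary without a transgene by the normalized table's names. Between wildtype 3 and 4 and wildtype 1 and 2, Cldn11 was the 1 member past the threshold. It fell by 0.76 ± 0.17 (SE) on the log2 scale, 1.69-fold, with a mean of 7.62 in wildtype 3 and 4 against 8.38 in wildtype 1 and 2 (95% interval -1.15 to -0.37, limma adjusted p = 0.0386). The count of 1 of 6 member probes stands beside 6.44% of all 16572 probes called in this comparison, 2.88% of them lower. Without adjustment, 2 members had p under 0.05, Cldn11 and Aard, against 25.2% of all probes. By the headers of the non-normalized table, wildtype 1, wildtype 2 and both shSLY arrays would be the 4 arrays headed wildtype. Under those headers, and normalized separately, Cldn11 log2 signals were 7.936 to 8.353 in wildtype and 6.521 to 7.725 in the transgenic columns. Cst12, Sox9 and Inha were likewise higher in every column headed wildtype, while Aard and Insl3 overlapped. For Inha the margin was thin, with 5.45 at the lowest in wildtype against 5.437 in the column headed shSLY 2. Before normalization Inha and Sox9 overlapped too, with 101.8 and 104.5 in the column headed shSLX 2 against at most 97.5 and 103.3 in wildtype. The share of all probes that separate in this way was not counted, so these separations are a description.

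Aard differed by -0.50 ± 0.14, a 1.41-fold lower level, with means of 8.55 and 9.05, and missed the threshold (limma adjusted p = 0.0723). Cst12 was at -0.22 ± 0.13, Inha at -0.17 ± 0.14, Insl3 at -0.16 ± 0.19 and Sox9 at -0.11 ± 0.12, with adjusted p from 0.314 to 0.647. All 5 Sertoli probes lay below 0, with a median of -0.22, where the median of all probes was -0.017 and 53.1% lay below 0. Wildtype 3 and 4 were both below wildtype 1 and 2 for Cst12, Cldn11, Aard and Sox9, 4 of 5 Sertoli probes, and for 34.1% of all probes.

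Wildtype 3 and 4 share slide 3 and neither of the others is on it, so the pair and the slide cannot be told apart. In the fit, wildtype 1 and wildtype 2 each set the level of their own slide. The SE and p of this comparison therefore hold no spread between those arrays or between slides. The Cldn11 call was lost without any 1 of the 4 wildtype arrays or either shSLY array, with adjusted p of 0.0684, 0.199, 0.291 and 0.17 when wildtype 1, 2, 3 or 4 was left out and 0.0715 when either shSLY array was. It was kept without either shSLX array (0.00484 each), where Aard passed too (0.0332 each), and Aard also passed when the wildtype arrays were fitted alone (0.043). Wildtype 2 and wildtype 1, on separate slides, differed by 0.36 ± 0.24 for Cldn11, 0.28 ± 0.20 for Aard and -0.04 to 0.06 for the other 4 probes. None passed (limma adjusted p = 1), beside 0.0302% of all probes called and 1.33% with an unadjusted p under 0.05.

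**Figure D3:**
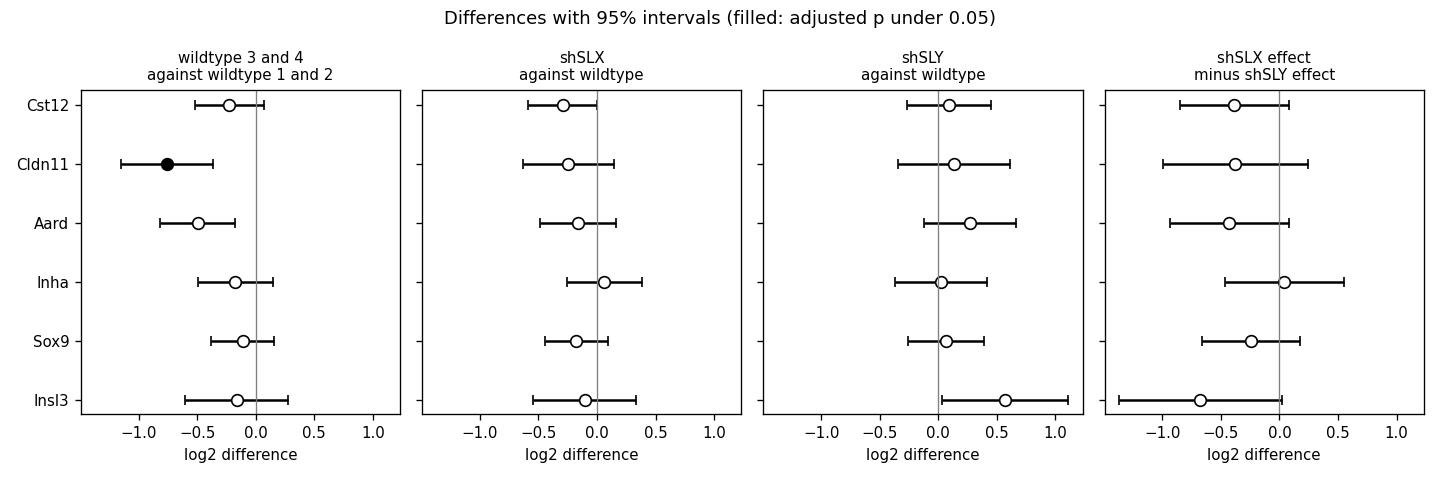
Log2 differences with 95% intervals from limma for the 6 marker probes in 4 comparisons, a filled point marking an adjusted p under 0.05. The 1 filled point is Cldn11 in wildtype 3 and 4 against wildtype 1 and 2.

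In the arrays labelled shSLX, set against wildtype with the slide in the fit, 0 of 6 member probes passed limma's test, beside 2.41% of all probes. With an unadjusted p under 0.05 the count was also 0, against 17.2% of all probes. Cst12 came nearest, at -0.29 ± 0.13 on the log2 scale (95% interval -0.59 to 0.0006, adjusted p = 0.292). Against the mean of wildtype 3 and 4, on the same slide, shSLX 1 and 2 were at -0.18 and -0.41. Both lay below both of those wildtype arrays, as did 24.9% of all probes.

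Cldn11 was at -0.24 ± 0.17 (95% interval -0.63 to 0.15), Sox9 at -0.18 ± 0.12, Aard at -0.16 ± 0.14 and Inha at 0.06 ± 0.14, with limma adjusted p from 0.467 to 0.849. The Cldn11 value came from shSLX 1, which lay 0.488 below its slide's wildtype mean, while shSLX 2 differed by -0.001. The Leydig probe of Insl3 was at -0.10 ± 0.19 (95% interval -0.54 to 0.33, adjusted p = 0.811), with the 2 arrays on either side, at -0.41 and 0.20. Of the 5 Sertoli probes 4 lay below 0, with a median of -0.18, where 53.8% of all probes lay below 0 with a median of -0.018. With no slide term, so against all 4 wildtype arrays, the values were -0.62 for Cldn11 (adjusted p = 0.245), -0.41 for Cst12 (0.131) and -0.41 for Aard (0.287).

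In the arrays labelled shSLY, 0 of 6 member probes passed, beside 0.712% of all probes. Insl3 had the largest value, 0.57 ± 0.24 on the log2 scale, 1.49-fold (95% interval 0.034 to 1.11), with an unadjusted p of 0.0398 and a limma adjusted p of 0.514. It was the 1 member with an unadjusted p under 0.05, against 8.91% of all probes. Set against wildtype 1 alone, which shares their slide, the arrays were 0.68 and 0.46 higher. Both lay above all 4 wildtype arrays, as did Cst12 and 16.6% of all probes. When slide 2 was fitted alone, against its 1 wildtype array, the value for Insl3 was 0.57 by construction. The slide term already sets shSLY against that array, so the equal value is no separate result.

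The Sertoli probes were at 0.27 ± 0.17 for Aard, 0.13 ± 0.21 for Cldn11, 0.09 ± 0.16 for Cst12, 0.07 ± 0.14 for Sox9 and 0.02 ± 0.17 for Inha, with limma adjusted p from 0.778 to 0.991. All 5 lay above 0, with a median of 0.092, where the median of all probes was -0.013 and 52.9% were below 0. Both shSLY arrays were above wildtype 1, the single wildtype array of their slide, for all 5 Sertoli probes and Insl3, and for 35.1% of all probes. The excess over wildtype 1 was 0.25 and 0.29 for Aard and 0.017 and 0.245 for Cldn11.

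The difference between the effects of the 2 transgenes was tested in the same fit. It passed for 0 of 6 member probes, beside 1.8% of all probes, and for 0 with an unadjusted p under 0.05, against 13.7%. Insl3 was at -0.68 ± 0.30 (shSLX effect minus shSLY effect, 95% interval -1.37 to 0.018, limma adjusted p = 0.377), Aard at -0.43 ± 0.22, Cst12 at -0.38 ± 0.20 and Cldn11 at -0.38 ± 0.27. Of the 5 Sertoli probes 4 lay below 0, with a median of -0.38, where 50.9% of all probes lay below 0. With no slide term, 3 of these passed: Aard at -0.78 (adjusted p = 0.0387), Insl3 at -0.81 (0.0225) and Cst12 at -0.61 (0.0218). They stand beside 2445 of all 16572 probes called in that setting, against 298 with the slide term. That setting compares arrays of slide 3 with arrays of slide 2, and both effects share wildtype arrays. Without shSLX 2, Insl3 passed at -0.98 (adjusted p = 0.0223). Among the genes of other cell types listed, described further on, 2 passed in this comparison, Dcn at 1.02 (adjusted p = 0.042) and Lyz1 at 1.14 (0.0498). Both calls were lost with no slide term and when wildtype 3, wildtype 4 or either shSLY array was left out.

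Across the 8 arrays the Sertoli probes moved together with the exception of Inha. Pearson's r was 0.93 for Cldn11 and Aard, 0.919 for Cst12 and Aard and 0.919 for Cldn11 and Sox9. It was 0.816 for Cst12 and Cldn11, 0.815 for Aard and Sox9 and 0.745 for Cst12 and Sox9, but 0.194 to 0.47 for Inha with the other 4. Insl3 had r from 0.411 (Inha) to 0.823 (Sox9) with the Sertoli probes, so its highest value lay above some of those between Sertoli probes. These values describe 8 arrays that fall into 2 sets of 4, wildtype 3, wildtype 4 and shSLX against wildtype 1, wildtype 2 and shSLY. That split, with all arrays of the former set below all of the latter, held for 4 of 5 Sertoli probes and for 14.6% of all probes. The mean of the 5 Sertoli probes, each centred on its own 8 arrays, was 0.14, 0.27, -0.21 and -0.084 in wildtype 1 to 4, -0.38 and -0.24 in shSLX, and 0.21 and 0.30 in shSLY.

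**Figure D4:**
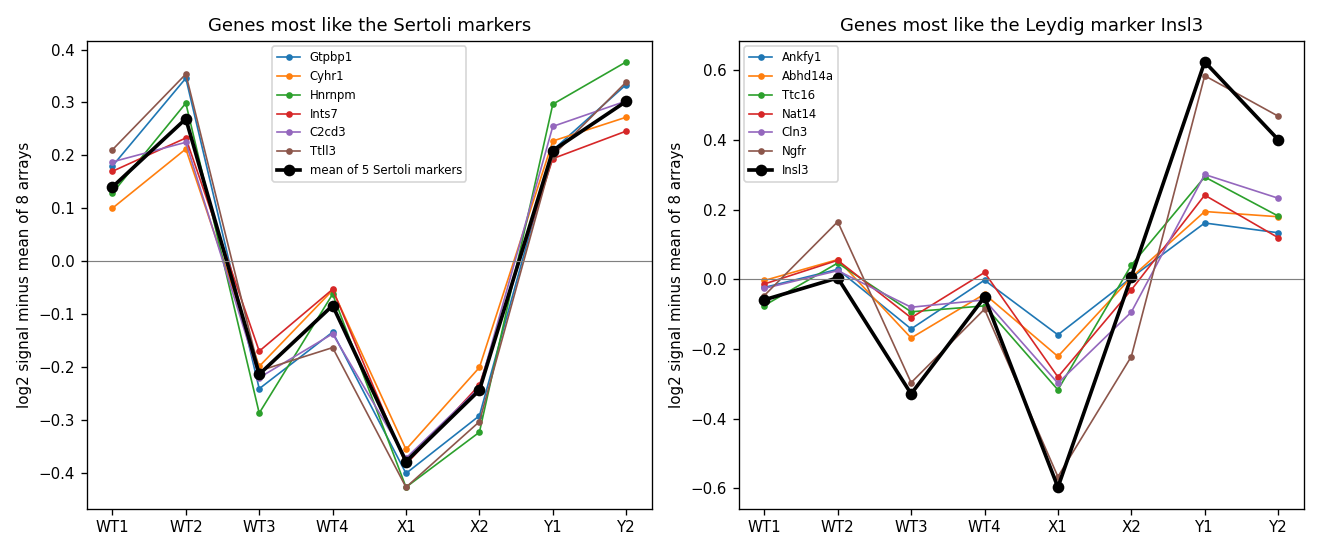
Log2 signal minus the mean of the 8 arrays, by array, for the genes whose pattern is most like the mean of the 5 Sertoli probes (left) and most like Insl3 (right), with the marker pattern drawn beside them. On the left, wildtype 3 and 4 and both shSLX arrays lie below 0 and the other 4 arrays above it. On the right, both shSLY arrays are highest and shSLX 1 is lowest.

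Of 9445 other genes, the 6 with the pattern most like the Sertoli mean were Gtpbp1 (r = 0.996), Cyhr1, Hnrnpm, Ints7, C2cd3 and Ttll3 (0.991), all over 8 arrays. Hnrnpm encodes an RNA-binding splicing protein, Ints7 an Integrator subunit and Ttll3 a tubulin glycylase. A likeness above 0.9 was reached by 402 genes. The log2 signal of Gtpbp1, a GTP-binding protein gene, was 7.76, 7.93, 7.34 and 7.45 in wildtype 1 to 4, 7.18 and 7.29 in shSLX, and 7.79 and 7.92 in shSLY. It was low on the arrays where Cldn11 and Aard were low. For Insl3 the 6 most like genes were Ankfy1 (r = 0.977), Abhd14a, Ttc16, Nat14, Cln3 and Ngfr (0.958), and 70 genes were above 0.9. Of these 6, Ngfr, the low-affinity neurotrophin receptor, had the widest range over the 8 arrays, 1.15 on the log2 scale, with 9.36 and 9.24 in shSLY, 8.21 and 8.55 in shSLX and 8.48 to 8.94 in wildtype.

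A wider list of 40 other Sertoli genes gave 36 with a probe and 15 past the filter, and 20 were detected in no column. Among those 20 were Amh, Gata4, Fshr, Dhh, Dmrt1 and Kitl. They encode the anti-Mullerian hormone, a GATA factor, the follicle-stimulating hormone receptor, desert hedgehog, a sex-determination factor and the KIT ligand. The 15 past the filter were Amhr2, Rhox5, Trf, Tjp1, Gja1, Gstm6, Espn, Vim, Drd4, Cst9, Serpina5, Sparc, Jam2, Lamp2 and Defb36, and 8 of the listed genes were detected in all columns. In wildtype 3 and 4 against wildtype 1 and 2, 2 of 15 fell and none rose, beside 6.44% of all probes called. These were Amhr2, the anti-Mullerian hormone receptor gene, and the defensin gene Defb36, and 12 of 15 lay below 0 with a median of -0.22.

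Amhr2 had log2 signals of 8.35, 8.26, 7.57 and 7.76 in wildtype 1 to 4, 7.83 and 8.11 in shSLX and 8.49 and 8.33 in shSLY. It fell by 0.64 ± 0.13 between the wildtype pairs (limma adjusted p = 0.0302, 1 of 3 probes past the threshold). Defb36 had 8.33, 8.31, 7.50 and 7.86 in wildtype 1 to 4, 7.92 and 7.69 in shSLX and 8.53 and 8.43 in shSLY. It fell by 0.64 ± 0.14 (adjusted p = 0.0366), and both Defb36 probes passed. Both genes were low on the arrays where Cldn11 was low, and like Cldn11 both lost the call without any 1 wildtype array and without either shSLY array, with adjusted p over all alternatives of 0.00545 to 0.94 for Amhr2 and 0.00993 to 0.85 for Defb36.

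With either transgene, 0 of the 15 other Sertoli genes passed. In the shSLX arrays 9 of 15 lay above 0 with a median of 0.085, opposite in sign to the -0.18 of the members, and in the shSLY arrays 12 of 15 with a median of 0.11. Espn, which encodes espin of the junctions between Sertoli cells and spermatids, was at -0.42 ± 0.17 in shSLX (limma adjusted p = 0.261) and 0.27 ± 0.21 in shSLY (0.843). Of 4 Lamp2 probes past the filter, 1 (ILMN_1217454) rose by 0.69 ± 0.10 in shSLX (adjusted p = 0.00956), while the brightest (ILMN_3153207) was at -0.24 ± 0.16 (0.483). That rise was lost with no slide term, without wildtype 3 and without wildtype 4. Lamp2 encodes a lysosomal membrane protein, and its probes do not give 1 direction.

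Of 27 other Leydig genes, 19 had a probe, 6 passed the filter and 12 were detected in no column. Hsd3b1 and Hsd17b3, further enzymes of androgen synthesis, and Fdx1, an electron carrier in the mitochondrion, were among the 12. Cyp11a1, which makes the first cut in cholesterol, was detected in 1 of 8 columns. In both transgene comparisons 0 of 6 passed, with medians of 0.11 in shSLX and 0.10 in shSLY. Between the wildtype pairs, where 3.56% of all probes rose, 1 of 6 rose and none fell. It was Idh1, a cytosolic isocitrate dehydrogenase that many cells express, at 0.58 ± 0.12 (limma adjusted p = 0.0289). Its log2 signal was 7.17, 7.41, 7.87 and 7.87 in wildtype 1 to 4, the opposite order to Cldn11, and its call was lost without any 1 wildtype array. Gstm2, a glutathione transferase gene, was at -0.52 ± 0.15 (0.0733) and Cyb5a, the cytochrome b5 partner of CYP17A1, at 0.08 ± 0.13 (0.733).

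**Figure D5:**
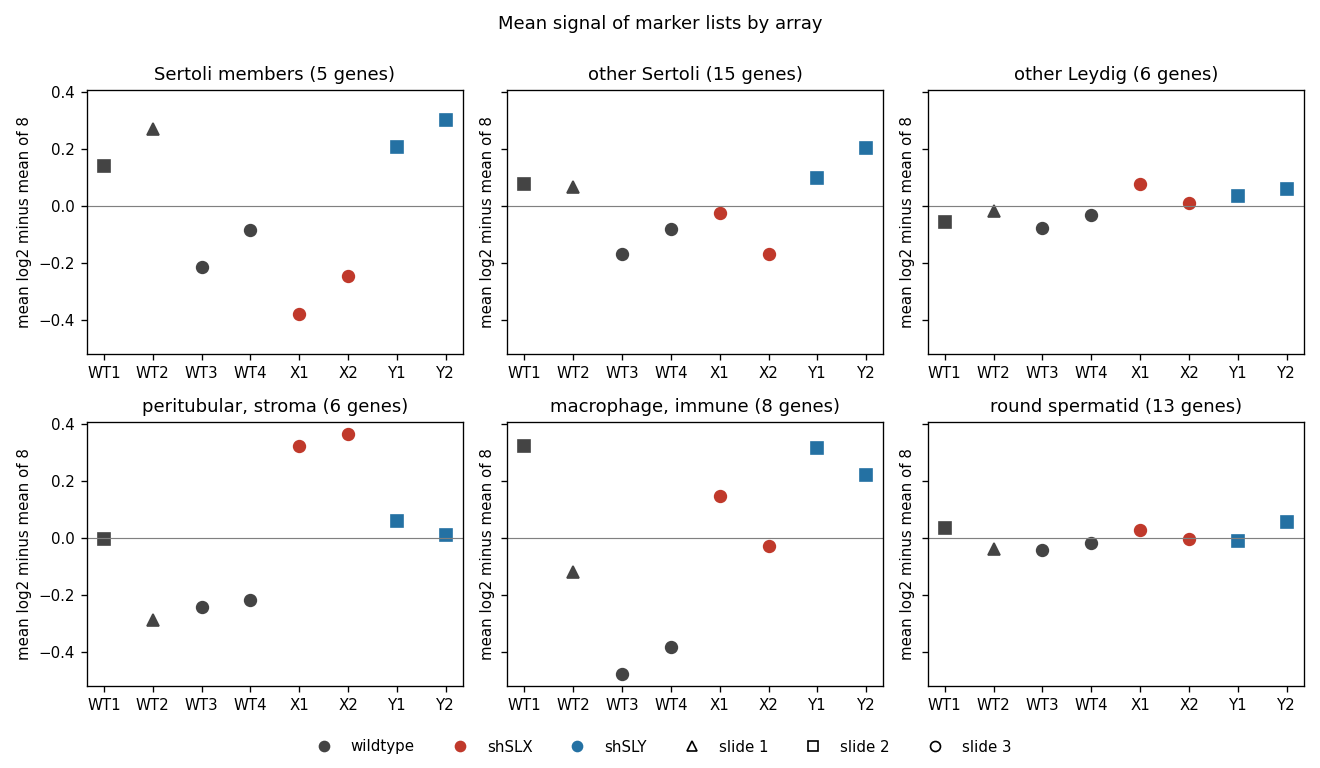
Mean log2 signal of 6 marker lists, each minus its own mean over the 8 arrays, with 1 point per array coloured by group and marked by slide. The Sertoli members and the immune list are low on wildtype 3 and 4, the mean of the stromal genes is highest on both shSLX arrays, and the round spermatid list stays within 0.1 log2 units.

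Genes of other somatic cells moved on some of the same arrays. Macrophage and immune genes were lower in wildtype 3 and 4. Of 14 listed genes 8 passed the filter, and all 8 lay below 0 with a median of -0.44, where 53.1% of all probes lay below 0. Of these, 4 fell, Lyz1 (-1.15) and Lyz2 (-0.72), which encode lysozymes, and C1qc (-0.61) and C1qb (-0.47), of complement. Among all probes 2.88% fell. In wildtype 2 against wildtype 1 all 8 also lay below 0, with a median of -0.34, where the 5 Sertoli members had a median of 0.059. Each of the 4 falls was lost without wildtype 1, without wildtype 3 and without wildtype 4, and of the 2 probes for each lysozyme gene 1 passed. The mean log2 signal of the immune genes ran from 6.63 to 7.43 over the wildtype arrays, and was 7.08 to 7.26 in shSLX and 7.33 to 7.43 in shSLY. The mean of the 5 Sertoli members ran from 7.17 to 7.66 in wildtype, 7.01 to 7.14 in shSLX and 7.60 to 7.69 in shSLY. The summed intensity of the Sertoli members was 821 to 1324 in wildtype, 765 to 823 in shSLX and 1236 to 1324 in shSLY. The part of immune transcripts in the lower Sertoli signal of wildtype 3 and 4 was not tested.

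In the shSLX arrays, where 2.19% of all probes rose, 3 of 8 immune genes rose, Lyz1 (1.24), Lyz2 (0.95) and C1qc (0.56). With the slide in the fit, these are rises over wildtype 3 and 4. Wildtype 1 lay above both shSLX arrays for Lyz1 (9.208 against 9.027 and 8.676) and C1qc (6.883 against 6.719 and 6.515). For Lyz2 wildtype 1, at 7.815, lay between them (7.874 and 7.381). In shSLX 0 of 6 marker probes and 0 of 15 other Sertoli genes passed. Of the peritubular and stromal genes, the matrix gene Dcn rose by 1.18, its dimmer probe, at 0.73, passing too. Between wildtype 2 and wildtype 1 these 2 Dcn probes differed by -1.29 and -0.90. The smooth muscle actin gene Acta2 rose by 0.82 with 1 of 3 probes, the other 2 being at 0.19 and 0.094. The smooth muscle myosin gene Myh11, at 0.78, was detected in 2 of 8 columns, the least the filter allows. Those 2 columns hold the ranks of shSLX 1 and 2, so it was tested only because it was high there, and its difference is a description. The rises of Lyz1, Lyz2, C1qc, Dcn and Acta2 were each lost without wildtype 3 and without wildtype 4. With no slide term the 3 immune rises, that of Acta2 and that of the dimmer Dcn probe were lost. The matrix gene Lum and the growth factor binding gene Igfbp7 were at 0.24 and 0.52 in shSLX and did not pass. In shSLY 0 of 8 immune and 0 of 6 stromal genes passed.

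Germ cell and vessel markers gave few calls. Among all probes, 2.88% fell, 3.56% rose and 53.1% lay below 0 between the wildtype pairs, and 2.19% rose in shSLX. Of 4 spermatogonial genes, which mark the germ cells before meiosis, all lay below 0 between the wildtype pairs with a median of -0.39, and the transcription factor gene Sohlh1 fell by 0.48 there and rose by 0.73 in shSLX. Both Sohlh1 values rest on the same wildtype 3 and 4 arrays, at 7.475 and 7.713. Wildtype 1 was at 8.172 and the shSLX arrays at 8.281 and 8.376, and the rise was lost with no slide term. Uchl1, a ubiquitin hydrolase gene, and the receptor gene Kit were at -0.41 and -0.37 between the wildtype pairs and did not pass. Spermatocyte genes, which mark meiotic germ cells, had a median of 0.16 between the wildtype pairs, with 9 of 10 above 0 and 1 rise, that of the synaptonemal complex gene Sycp2 (0.87). Of 3 probes of Ldhc, a germ cell lactate dehydrogenase, 1 (ILMN_2665749) rose by 0.46, while the brightest was at 0.15. The chaperone gene Hspa2 and the cyclin gene Ccna1 were at 0.14 and 0.087. Round spermatid genes had a median of -0.081 there, with 2 of 13 rising, the transition protein gene Tnp1 (0.51) and the acrosome gene Spaca1 (0.67), while Prm1 and Acrv1 were at -0.069 and -0.018. Of 4 endothelial genes, 1 rose in shSLX, the von Willebrand factor gene Vwf (0.82), with Egfl7 at 0.45 and Flt1 at -0.14. Each of these calls was lost without wildtype 3 and without wildtype 4. In shSLY 0 genes of these 4 lists passed.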

How the data were processed

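Total RNA of 8 round spermatid samples was hybridised to Illumina mouse bead arrays. The main table is the deposited series matrix: intensity on a linear scale, normalized by the authors (its minimum, 46.4, and maximum are the same on every array). No source used here says if background was subtracted. Detection p-values came from the deposited non-normalized table, per the file headers, in which 13572 to 16113 probes per column were under 0.01. The submitters' processing notes name BeadStudio and GenomeStudio.

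From these intensities, log2 signals were computed with normexp background correction (offset 50) and quantile normalization in limma 3.58.1 (R 4.3.3). Probes with a detection p-value under 0.01 in at least 2 of 8 columns, 16572 in all, were fitted with lmFit and eBayes on group and slide (3 residual and 5.69 prior degrees of freedom). P-values were adjusted by Benjamini-Hochberg over these probes, with a threshold of 0.05. The number of arrays limits the precision. With the slide term, shSLX is set against wildtype 3 and 4 and shSLY against wildtype 1. Columns of the series matrix are named by sample, and no column was renamed by its values.

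Platform annotation gave 34885 probes 1 gene symbol, 18 several and 10378 none, and 34807 were updated to the GRCm38.p6 gene table. Lists used the brightest probe per gene. The text names every member, listed genes past the threshold in any comparison and those among the 3 brightest of a list, and the 6 genes most like each cell type's mean. The members and lists were chosen with earlier results of these data known. The alternatives varied the slide term, arrays, background, filter and table.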

Additional observations from a re-analysis of the deposited data

Results flagged for a closer look

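Among the 11 marker probes, 2 had a wildtype array that stood apart from the other 3 by more than Dixon's critical value for 4 samples (the gap to the nearest array as a share of the range), and chance does so in about 1 in 20 groups. Inha in wildtype 4, at a log2 signal of 6.18 against 6.54 to 6.59 in the other wildtype arrays, had a ratio of 0.875. Hsd3b6 in wildtype 1, at 6.01 against 6.09 in each of the others, had a ratio of 0.908, on a probe that was detected in 0 of 8 columns.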

How the results depend on the processing

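Of 428 values of single member probes under the alternatives, 374 kept their direction and side of the threshold, 16 passed where the main value did not, 8 no longer passed and 30 changed sign. The count of member probes past the threshold, 0, 0, 0 and 1 for shSLX, shSLY, their difference and the wildtype pairs, changed as follows. It was 3 for the difference with no slide term, beside 2445 of all 16572 probes. With wildtype arrays alone it was 2 for the wildtype pairs, beside 3144 of all probes. With normexp offset 16 it was 0 for the wildtype pairs, Cldn11 then being at -0.88 (limma adjusted p = 0.0623). With slide 2 alone it was 1 for shSLY, Insl3. Leaving out 1 array gave 0 to 2 for the wildtype pairs and 0 to 1 for the difference, and no call for either transgene. Without wildtype 1, shSLY could not be estimated beside the slide term.

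The labels give all groups the numbers 1 and 2. Between same-numbered arrays, correlations of deviations from group means over 16572 probes were 0.139, -0.082 and -0.063 for number 1 and -0.084, 0.216 and -0.063 for number 2. With 2 arrays in a group their deviations are equal and opposite, so the value between shSLX and shSLY is the same for both numbers. Wildtype deviations also hold differences between slides. These values therefore cannot decide if the numbers pair the samples. A replicate block was also fitted in place of the slide term. Wildtype 3 and 4 are each alone with their number, so the block sets each transgene against wildtype 1 and 2 only. For shSLX it compares arrays of slide 3 with arrays of slides 1 and 2, so transgene and slide cannot be told apart there. The block gave 3 members for shSLX (Cst12, Cldn11 and Aard), beside 2103 of all 16572 probes. It gave 0 for shSLY and 4 for the difference (those with Insl3), beside 334 and 4383 of all probes. Under the block Inha was at -0.11 in shSLX and -0.15 in the difference, Cldn11 at -0.047 in shSLY, C1qc at -0.043 in shSLX and Lyz1 at -0.45 in the difference. The block could not be used for the wildtype comparisons, where each number occurs once.

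Signs also changed in other settings, and the cause was not tested. With no slide term Inha was at -0.024 in shSLX and -0.15 in the difference, and Lyz1 at -0.45 in the difference; with slide as a random block Inha was at -0.083 in the difference. Leaving out 1 array moved Inha between -0.14 and 0.26, Aard between -0.38 and 0.056 and Insl3 between -0.41 and 0.20 in shSLX, and Inha between -0.16 and 0.24 in the difference and between -0.37 and 0.028 in the wildtype pairs.

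The non-normalized table under its own headers exchanges array names, which alone can turn a direction. It gave 1 member for shSLX (Insl3, -1.10, adjusted p = 0.0477) and 0 for the wildtype pairs, where Cldn11 was at -0.053 (adjusted p = 0.984). In shSLX there, Inha was at -0.41, Myh11 at -0.46, Acta2 at -0.15, Lyz2 at -0.77, C1qc at -1.16, Lyz1 at -0.95, Vwf at -0.38, Sohlh1 at -0.50 and -0.51 by its 2 probes, the named Lamp2 probe at -0.47 and the dimmer Dcn probe at -0.60. In shSLY, Cst12 was at -0.84, Inha -0.30, Cldn11 -1.07, Aard -0.59, Sox9 -0.57 and Insl3 -0.34. In the difference, Cst12 was at 0.51, Inha -0.11, Cldn11 0.32, Aard 0.18, Dcn -0.65 and Lyz1 -0.56. Between the wildtype pairs, Cst12 was at 0.13, Inha 0.090, Aard 0.14, Sox9 0.071, Insl3 0.68, Amhr2 0.12, Defb36 0.19 and 0.16 by its 2 probes, Lyz2 0.62, C1qc 0.52, Lyz1 0.60, Sohlh1 0.081 and Sycp2 -0.099.

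Counts over all probes varied by more than 1.5 times. For shSLX, 400 became 2103 with the block, 2683 with the non-normalized table and 43 to 2495 with 1 array left out (266 with probes detected in all 8 columns). For shSLY, 118 became 635 with no slide term, 469 with slide random, 558 with slide 2 alone, 334 with the block, 17 with offset 16, 50 with the non-normalized table and 5 to 516 with 1 array left out. For the difference, 298 became 2445, 1043, 4383, 171 and 21 with no slide term, slide random, block, offset 16 and non-normalized table, and 13 to 1695 with 1 array left out. For the wildtype pairs, 1067 became 3144 with wildtype arrays alone, 685 with offset 16, 23 with the non-normalized table and 1 to 3369 with 1 array left out. Signal over background limits Inha and Sox9, detected in 5 and 6 of 8 columns.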

Other observations

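Cst9 encodes testatin, a cystatin relative known from fetal Sertoli cells. Of the 15 other Sertoli genes past the filter it had the widest spread, with an SD of 0.59 over the 8 arrays, larger than that of 98.5% of all probes. It was chosen after its values were seen. Its log2 signal was 7.62, 7.67, 7.98 and 7.56 in wildtype 1 to 4, 8.41 and 6.89 in shSLX 1 and 2, and 6.95 and 8.47 in shSLY 1 and 2. In each transgenic pair 1 array was above all wildtype arrays and the other below them. The fit gave -0.12 ± 0.53 (SE) for shSLX and 0.09 ± 0.66 for shSLY (limma adjusted p = 0.931 and 0.991).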
